A study of Homo sapiens with 6 samples.

Results

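The p53 target genes described here are 34 genes chosen by name as known targets of p53 or close relatives of them. The choice was made with earlier results of these data known, so shares set beside those of all genes are descriptive only. A probe set is a group of short oligonucleotides on the array that are read together. Each gene was represented by its brightest probe set among those annotated with a single gene symbol. Of the 34 genes, 32 had such a probe set and all 32 were bright enough to be tested, among 13842 tested genes in all. BTG2 and FDXR were not analysed here. The cells were U87-2M1, an invasive subline of the human glioma line U87 that came out of a lung metastasis assay in animals and was then grown in culture. All 6 arrays carried RNA from passage 4 cells kept in hypoxia and transduced with a baculovirus, an insect virus used as a gene carrier. In 3 samples the vector held a control decoy, and in the other 3 it held a decoy for miR-10b, a transcript meant to bind that microRNA. Both groups therefore share the line, the hypoxia and the virus. Nothing in the labels says whether replicates came from separate cultures, and p-values therefore reflect only how far these samples scatter, in part perhaps for technical reasons. Binding of miR-10b by the decoy was not measured here.

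As background, p53 is a transcription factor that is kept scarce by the ubiquitin ligase MDM2 and is released by DNA damage and other stresses. It then switches on genes for cell cycle arrest, DNA repair, metabolic adjustment and cell death, together with its own inhibitors, so that the response limits itself. U87 cells are known as a glioma line with an unmutated p53 gene, and many of the targets also answer to other stress regulators.

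In the miR-10b decoy cells the p53 targets split between rises and falls. Of 32 tested genes, 9 were higher, 7 were lower and 16 did not pass the test (limma, adjusted p below 0.05 over all genes tested). That is 50% called, beside 33.9% of all tested genes. The share higher was 28.1% of the p53 targets against 16.6% of all tested genes, and the share lower was 21.9% against 17.3%. The median signal was 431 for the targets and 206 over all genes tested. With a stricter filter at the 50th percentile of signal, 58.6% of 29 p53 targets and 45.4% of all genes passed. The median log2 difference of the 32 targets was 0.09, beside -0.02 over all genes tested. The 9 that rose were MDM2, PPM1D, BTG1, GADD45A, GADD45B, PLK2, PLK3, PHLDA3 and TP53INP1, and the 7 that fell were RRM2B, CCNG1, CCNG2, PERP, TP53INP2, SPATA18 and CYFIP2. In a bulk extract, a change in the share of cells that express a gene and a change in RNA per cell cannot be told apart.

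**Figure D1:**
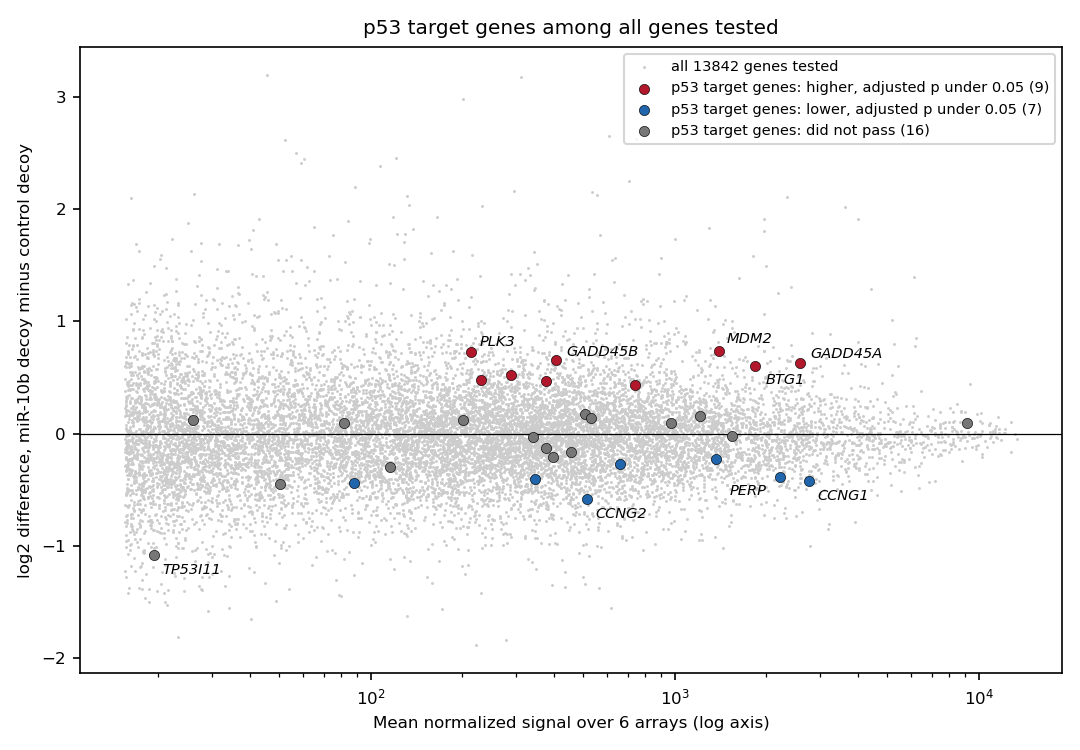
Log2 difference (miR-10b decoy minus control decoy, vertical axis) against mean normalized signal over 6 arrays (horizontal log axis) for all 13842 tested genes in grey, with the p53 target genes coloured by the result of their test. The 9 targets that were higher lie between 0.43 and 0.74 and the 7 that were lower between -0.58 and -0.23, inside the spread of the other genes.

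Promoter sequence was compared because the targets share p53 as a regulator. In RefSeq windows of 300 bases (250 before and 50 after each annotated start, GRCh38.p14), the p53 half-site consensus of 10 bases, which equals its own reverse complement and so covers both strands, was found in 7 of 43 windows of the targets (16.3%) and in 6.63% of all 35116 windows. A match is a description of the letters and not a bound site, and most known p53 sites of these genes lie outside such short windows. Windows were searched for 30 of the 34 targets, and GADD45A, PHLDA3, RRM2B and TP53INP1, which passed the expression test, were not among them. Of the 7 targets with a match, PLK2 passed the expression test. SESN1, EI24, AEN, RPS27L and DDB2 had a match and did not pass, and the other was FDXR. Stretches before the start are printed for PLK2 and for 4 of the targets that did not pass, 5′ to 3′ along the gene's strand with the half-site in capitals, to show that like matches occur in both classes.
PLK2, chr5:58460179-58460248, minus strand: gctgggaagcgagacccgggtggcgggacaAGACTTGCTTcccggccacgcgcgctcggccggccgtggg
SESN1, chr6:109008998-109009067, minus strand: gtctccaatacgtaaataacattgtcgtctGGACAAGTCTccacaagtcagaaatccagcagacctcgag
EI24, chr11:125569437-125569476, plus strand: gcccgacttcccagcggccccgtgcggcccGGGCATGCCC
AEN, chr15:88621276-88621339, plus strand: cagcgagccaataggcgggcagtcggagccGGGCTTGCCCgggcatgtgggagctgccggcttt
RPS27L, chr15:63157497-63157566, minus strand: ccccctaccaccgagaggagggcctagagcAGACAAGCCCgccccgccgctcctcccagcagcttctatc
The half-site began 132 bases before the start in PLK2, 49 in SESN1, 10 in EI24, 34 in AEN and 59 in RPS27L. SESN1 has further annotated starts, whose windows held no match. In DDB2 a pair of half-sites lay just after one of its annotated starts, and 0.0285% of all windows held a pair spaced by at most 13 bases. The other targets that passed the expression test and had windows held no match there. They were MDM2, PPM1D, BTG1, GADD45B, PLK3, CCNG1, CCNG2, PERP, TP53INP2, SPATA18 and CYFIP2.

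Signals below are quantile-normalized intensities, given for replicates 1, 2 and 3 in that order, and differences are on the scale log2(signal + 7), which understates changes of dim genes. The 3 miR-10b decoy arrays lay wholly above or wholly below the 3 control arrays for all 16 genes that passed and for 5 that did not. These 21 genes are 65.6% of the 32, while such separation was seen in 46.4% of all tested genes. The decoy arrays lay above in 12 of the 32 targets, while 22.4% of all tested genes showed this. They lay below in 9 of the 32, while 24% of all tested genes did. One control array stood apart before normalization, since the mean deposited signal of control replicate 3, after trimming 2% at each end, was 192 against 155 to 163 on the other 5 arrays. Leaving it out, 11 p53 targets were higher and 8 lower, while 15.6% of all tested genes were higher and 14.5% lower. The actin 3'/5' signal ratio, which rises as RNA degrades, averaged 5.73 ± 0.47 for control and 8.54 ± 1.77 for miR-10b decoy samples (SD, n = 3). An exact two-sided permutation test gave p = 0.1, the smallest it can give with 3 against 3. Its part in the results was not tested, and the GAPDH ratio was 0.945 ± 0.019 and 0.943 ± 0.007. Of the labelled cell type, all 6 mesenchymal glioma markers lay above the filter level of 15.6, their sum ranging from 30777 to 32388 in controls and from 29494 to 30092 with the decoy. Of these 6, SPARC (-0.63, adjusted p = 7.93e-06), NES (-0.38, adjusted p = 0.00776) and FN1 (-0.13, adjusted p = 0.0299) were lower, and VIM, CD44 and CHI3L1 did not pass. The 4 glial markers summed to between 17.02 and 41.5 in controls and between 32.2 and 57.1 with the decoy. GFAP and S100B lay under the filter level on every array, and SOX2 was tested and did not pass (-0.44). OLIG2, too low on average to be tested, had 0.806, 5.23 and 7.8 in controls, all under the filter level, and 19.7, 19.7 and 29.9 with the decoy, all above it. Of 4 endothelial markers PECAM1 was lower (-0.40, adjusted p = 0.0134), the list summing to between 168 and 215 in controls and between 135 and 159 with the decoy, with VWF and CDH5 under the filter level on every array. The 4 leukocyte markers summed to between 28.3 and 49.7 in controls and between 24.3 and 38.03 with the decoy, and the 5 epithelial markers to between 91.97 and 139 and between 85.3 and 107; PTPRC, CD14 and LYZ lay under the filter level on every array, and the tested CD3E, KRT5 and KRT8 did not pass. The part of these shifts in the results was not tested.

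**Figure D2:**
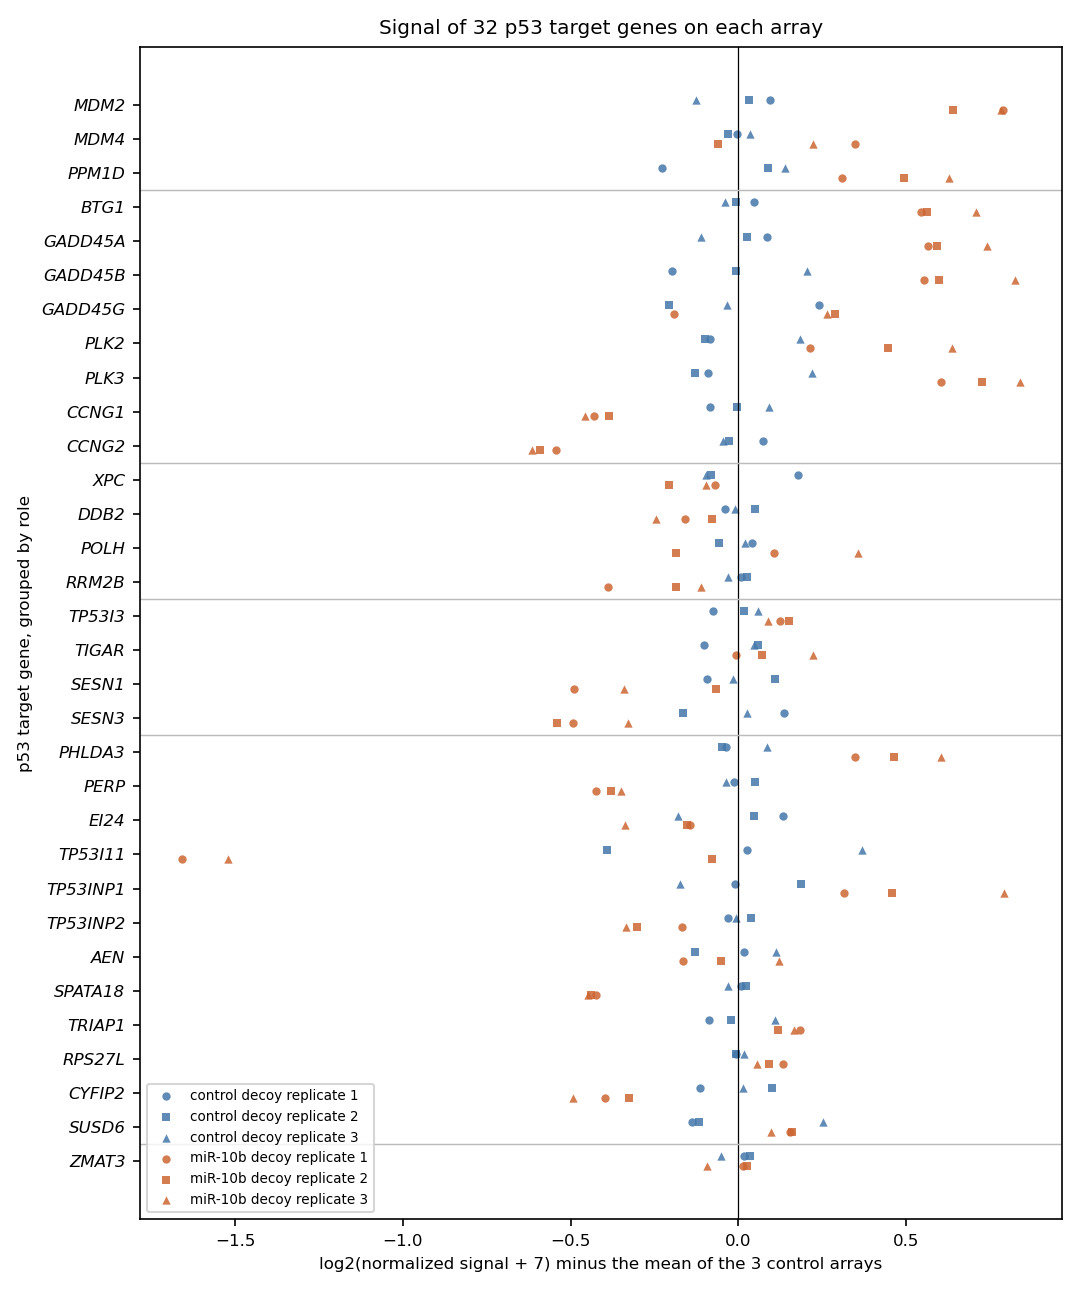
Signal of each of the 32 p53 target genes on each array, as log2(normalized signal + 7) minus the mean of the 3 control arrays (horizontal axis), with blue symbols for control decoy arrays, orange for miR-10b decoy arrays and grey lines between groups of genes with like roles. All orange symbols lie right of all blue ones for MDM2, PPM1D, BTG1, GADD45A, GADD45B, PLK2, PLK3, PHLDA3 and TP53INP1, while those of TP53I11 spread most widely. They also lie right of all blue ones for TP53I3, TRIAP1 and RPS27L, which did not pass.

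Feedback regulators of p53 came out higher (2 of 3, 66.7%, beside 16.6% of all tested genes) or did not pass (1). A list of 3 genes cannot be set against that share. MDM2, which marks p53 for destruction and is itself a p53 target, had signals of 1115, 1066 and 956 on the control arrays and 1809, 1629.9 and 1799 with the miR-10b decoy. The groups did not overlap, and MDM2 rose by 0.74 on the log2 scale (SE 0.07, adjusted p = 1.5e-05), which is 1.67-fold. PPM1D, a phosphatase that reverses the activating phosphorylation of p53, had 162, 203 and 211 in controls and 238, 272 and 299 with the decoy. It too was higher on every decoy array, and rose by 0.48 on the log2 scale (SE 0.12, adjusted p = 0.00945), although with per-gene variances and no moderation its call ended (adjusted p = 0.0984). MDM4, the relative of MDM2 that blocks the activity of p53, had 472, 464 and 485 in controls and 605, 454 and 553 with the decoy. Decoy replicate 2 lay below all controls, the groups overlapped, and the log2 difference of 0.17 did not pass (95% interval -0.04 to 0.38, adjusted p = 0.209). Without decoy replicate 2 it passed at 0.29 (adjusted p = 0.0304), and with the probe sets averaged its sign turned (-0.06). The log2 ratio of MDM2 to MDM4 within each array went from 1.13 ± 0.14 (control) to 1.70 ± 0.13 (decoy) (SD, n = 3, two-sided exact permutation p = 0.1).

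Of the 8 growth arrest genes tested, 5 were higher (62.5%, beside 16.6% of all tested genes), 2 were lower (25%, beside 17.3%) and 1 did not pass. With 8 genes these shares are only a rough description. BTG1, an antiproliferative protein that works with the deadenylase complex on mRNA, had 1501, 1449 and 1415 in controls and 2125, 2152 and 2380.0 with the decoy. Controls stayed within a narrow band well below the decoy arrays, and BTG1 rose by 0.61 on the log2 scale (SE 0.06, adjusted p = 1.63e-05). GADD45A, a small stress protein that binds replication and kinase partners to slow the cycle, had 2147, 2063 and 1876 in controls and 2999, 3055 and 3391 with the decoy. All decoy arrays lay above all controls, a rise of 0.63 on the log2 scale (SE 0.06, adjusted p = 2.35e-05). Its relative GADD45B, better known as a target of NF-kB and TGF-beta signalling, had 271, 310.1 and 359.9 in controls and 460.1, 475 and 557 with the decoy. The groups stayed apart and GADD45B rose by 0.66 on the log2 scale (SE 0.11, adjusted p = 0.000787). The third relative, GADD45G, stood near the filter level at 24.5 ± 4.99 to 27.4 ± 6.09 (control to decoy, SD, n = 3), and its value of 0.12 did not pass, with a 95% interval of -0.46 to 0.70 that is too wide to compare with its relatives.

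Both stress-responsive polo-like kinases were higher. PLK3 had 149, 145 and 187 in controls and 246, 268 and 291 with the decoy, and rose by 0.72 on the log2 scale (SE 0.12, adjusted p = 0.000567). PLK2 had 591, 585 and 714 in controls and 729, 857 and 979.7 with the decoy. Its highest control, replicate 3, came close to its lowest decoy array, and PLK2 rose by 0.43 on the log2 scale (SE 0.11, adjusted p = 0.00905), a call that ended with no intensity trend in the variance (adjusted p = 0.0665) and without moderation (adjusted p = 0.13).

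The cyclin G genes went the other way. CCNG1, a classical p53 target that brings a phosphatase to MDM2, had 2994, 3164 and 3381 in controls and 2357, 2429.7 and 2309.9 with the decoy. The groups did not overlap, and it fell by 0.42 on the log2 scale (SE 0.05, adjusted p = 0.000116). CCNG2, an unconventional cyclin linked to cell cycle exit, had 649, 606 and 598 in controls and 422, 407 and 400.2 with the decoy. It fell by 0.58 on the log2 scale (SE 0.07, adjusted p = 9.38e-05), with little spread inside either group.

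Of 4 genes of DNA repair and nucleotide supply, 1 was lower (25%, beside 17.3% of all tested genes) and 3 did not pass. A list of 4 genes cannot be set against that share. RRM2B, the p53-inducible subunit of ribonucleotide reductase that supplies nucleotides for repair, had 1482, 1501 and 1443 in controls and 1125, 1296 and 1365 with the decoy. Every decoy array was lower, most of all replicate 1, and RRM2B fell by 0.23 on the log2 scale (SE 0.07, adjusted p = 0.0272). This was the least stable of the 16 calls, and it ended after centring on the array median (adjusted p = 0.135), and also when control replicate 1 (0.0649), control replicate 2 (0.0891) or decoy replicate 1 (0.0905) was left out. XPC and DDB2, which recognise damaged bases for nucleotide excision repair, had -0.12 (95% interval -0.33 to 0.08) and -0.16 (-0.33 to 0.00). POLH, the polymerase that copies past ultraviolet lesions, had 0.09 (95% interval -0.25 to 0.44).

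Metabolic targets did not pass in either direction (0 of 4 tested, beside 33.9% of all tested genes called). So short a list cannot be set against that share. TIGAR, a phosphatase that diverts glucose away from glycolysis, had 937 ± 57.4 to 1003 ± 83.2 (control to decoy, SD, n = 3) and a log2 difference of 0.10 (95% interval -0.07 to 0.26). The oxidoreductase TP53I3 had 0.12 (-0.08 to 0.32). The sestrins, stress proteins that restrain the growth kinase complex mTORC1, had values below 0. SESN1 had -0.30 (adjusted p = 0.111) and SESN3 had -0.45 (adjusted p = 0.0673), the latter with signals of 65.7, 52.03 and 60.4 in controls and 40.02, 38.5 and 45.6 with the decoy that did not overlap. SESN3 passed as lower on the deposited scale (adjusted p = 0.0465) and after rescaling to one trimmed mean (adjusted p = 0.0474), and SESN1 when decoy replicate 2 was left out (adjusted p = 0.0481). The RNA-binding protein ZMAT3, often among the strongest p53 targets, had 1557 ± 48.3 to 1538 ± 69.7 (SD, n = 3) and a log2 difference of -0.02 (95% interval -0.14 to 0.10).

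Targets tied to cell death, survival and autophagy were divided, with 2 higher (16.7%, beside 16.6% of all tested genes), 4 lower (33.3%, beside 17.3%) and 6 that did not pass among 12. PHLDA3, which keeps the survival kinase AKT from the membrane, had 307, 305 and 335 in controls and 404, 437 and 483 with the decoy. The groups did not overlap and PHLDA3 rose by 0.47 on the log2 scale (SE 0.09, adjusted p = 0.00161). TP53INP1, a stress protein of the nucleus and of autophagy, had 232, 267 and 207 in controls and 293, 324 and 410.3 with the decoy. It rose by 0.52 on the log2 scale (SE 0.13, adjusted p = 0.00869), decoy replicate 3 standing highest, and its call ended without the intensity trend (adjusted p = 0.0546) and without moderation (adjusted p = 0.118). Its relative TP53INP2, an autophagy protein, had 709, 743 and 719.7 in controls and 644, 585 and 572 with the decoy. It fell by 0.27 on the log2 scale (SE 0.07, adjusted p = 0.0113), which ended after centring (adjusted p = 0.103) and when control replicate 2 was left out (adjusted p = 0.0536). Within arrays the log2 ratio of TP53INP1 to TP53INP2 went from -1.60 ± 0.16 to -0.81 ± 0.32 (SD, n = 3, two-sided exact permutation p = 0.1).

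PERP, a membrane protein of desmosomes that p53 induces in death, had 2495, 2603 and 2453 in controls and 1873, 1932 and 1973 with the decoy. It fell by 0.39 on the log2 scale (SE 0.05, adjusted p = 0.000128), with the groups well apart. CYFIP2, a subunit of the WAVE complex that controls actin, had 365, 425 and 399.7 in controls and 299, 314 and 279 with the decoy. Again no array overlapped, and CYFIP2 fell by 0.41 on the log2 scale (SE 0.09, adjusted p = 0.00388). SPATA18, a protein of mitochondrial quality control, had 103, 104 and 99.9 in controls and 74.4, 73.5 and 72.98 with the decoy. Both groups were tight, and it fell by 0.44 on the log2 scale (SE 0.12, adjusted p = 0.0167), with the call ending when control replicate 2 was left out (adjusted p = 0.0526). Leaving out control replicate 2 brought the count of lower targets from 7 to 4, since RRM2B and TP53INP2 no longer passed then either. The share lower over all tested genes went from 17.3% to 13.2%.

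The other 6 genes of that role did not pass. TRIAP1, a small mitochondrial survival factor, had 0.16 (adjusted p = 0.079) and RPS27L, a variant ribosomal protein, had 0.09 (adjusted p = 0.0561). Decoy arrays of both lay above all controls. TRIAP1 passed after centring on the array median (adjusted p = 0.0281) and when control replicate 3 was left out (0.0274), and RPS27L when decoy replicate 3 was left out (0.0408). The endoplasmic reticulum protein EI24 had -0.21 (95% interval -0.42 to 0.00), the membrane protein SUSD6 0.14 (-0.08 to 0.36) and the nuclease AEN -0.03 (-0.25 to 0.18). EI24 passed as lower and SUSD6 as higher when control replicate 3 was left out (adjusted p = 0.0336 and 0.0254). TP53I11 had 27.3, 18.7 and 36.5 in controls and 3.69, 24.98 and 4.75 with the decoy. Decoy replicates 1 and 3 lay under the filter level and replicate 2 among the controls, so its log2 difference of -1.09 (95% interval -2.06 to -0.11, adjusted p = 0.0809) is poorly measured. It passed without decoy replicate 2 (-1.60, adjusted p = 0.0138) and on the deposited scale (adjusted p = 0.0225).

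Other probe sets of the same genes share the RNA and are not replicates; they were fitted together with all probe sets above a filter level of 11.2. The 32 genes had 87 probe sets, and 14 genes had a single one. Of 55 others, 17 lay under the filter level, and of the remaining 38, 8 passed in the direction of the gene's own call, 0 passed against it and 3 passed for a gene that had not. BTG1 had a second probe set at 0.91 (adjusted p = 4.99e-06), PHLDA3 one at 0.999 (adjusted p = 8.3e-05) and PERP one at -0.58 (adjusted p = 0.000159). For MDM2, 1 of the 9 others passed, at 1.01 (adjusted p = 0.000616), while 6 did not pass and 2 lay under the filter level. GADD45B had 2 further probe sets that passed upward, at 0.58 and 0.36, and CCNG2 had 2 downward, at -0.78 and -0.74. When all probe sets of a gene were averaged, dim ones included, 5 calls ended, with adjusted p of 0.137 for PERP, 0.221 for PLK3, 0.256 for PPM1D, 0.117 for SPATA18 and 0.178 for TP53INP1.

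The 3 disagreements were in POLH, MDM4 and RPS27L, named here after their values were seen. A POLH probe set other than the one used had 28.3, 30.7 and 45.5 in controls and 72.2, 96.5 and 95.1 with the decoy, a log2 difference of 1.20 (adjusted p = 0.00111), while the other 4 tested POLH probe sets did not pass. A second MDM4 probe set had 387, 413 and 373 in controls and 483, 477 and 488 with the decoy, with no overlap and a difference of 0.30 (adjusted p = 0.013). RPS27L had a probe set that was lower, at -0.27 (adjusted p = 0.0311). The probe sets used for MDM4 and PERP have identifiers ending in x_at, the kind given to sets that may also bind related transcripts. So do the further MDM2 probe set at 1.01 and the further GADD45B probe set at 0.36. Among genes that passed, those used for MDM2, BTG1, GADD45B, CCNG1 and CYFIP2 end in s_at. Whether these sets bind several transcripts was not examined.

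**Figure D3:**
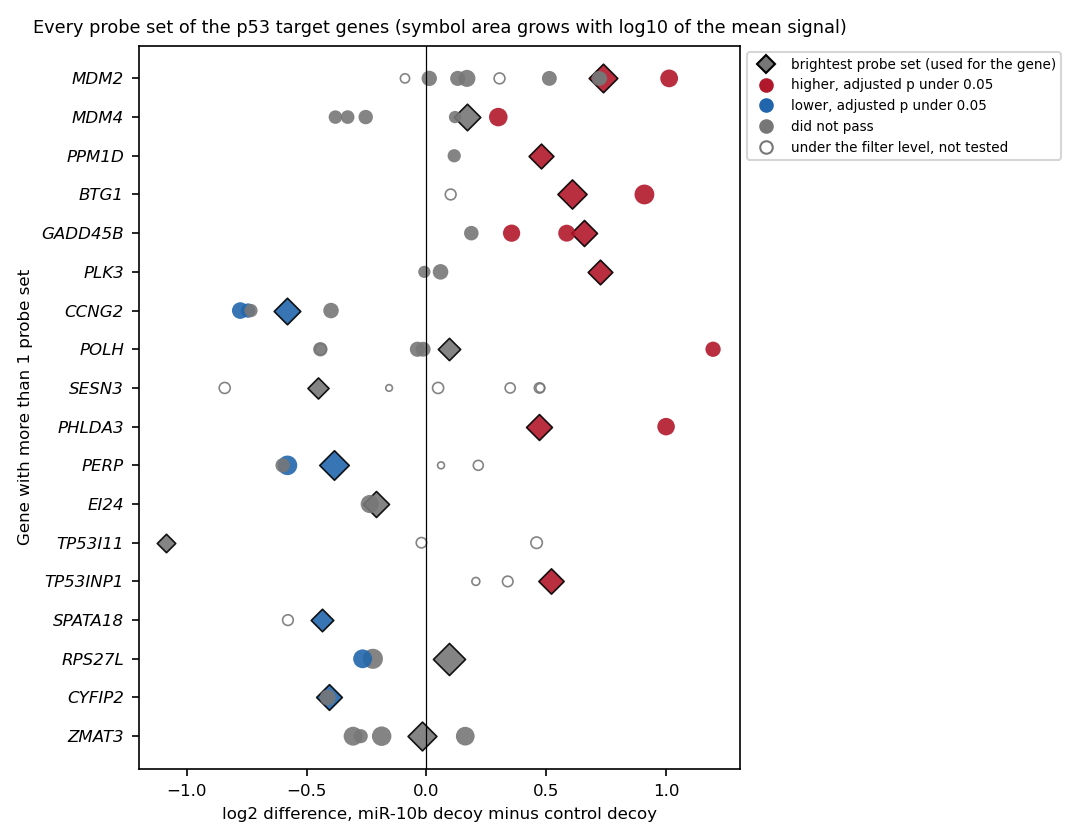
Log2 difference (miR-10b decoy minus control decoy, horizontal axis) of every probe set of the 18 p53 target genes that have more than 1; diamonds are the brightest probe set, colour gives the test and open circles lie under the filter level. Red (higher) and blue (lower) symbols of one gene lie on one side of 0, and POLH shows one red symbol at 1.20 apart from the rest. Grey symbols, which did not pass, lie on both sides of 0 for some genes, such as MDM4 and ZMAT3.

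How the arrays were scaled set the split between higher and lower calls over all genes. On the deposited scale 9 targets were higher and 9 lower, the 2 additions being SESN3 and TP53I11, while 29.9% of all calls were upward instead of the 48.9% seen after quantile normalization. Centred on the array median, 10 targets were higher and 5 lower, and 62.2% of all calls were upward. Over all tested genes, 7.9% were higher and 18.5% lower on the deposited scale, and 20.7% and 12.6% after centring. The 9 higher targets MDM2, PPM1D, BTG1, GADD45A, GADD45B, PLK2, PLK3, PHLDA3 and TP53INP1 passed under all 4 scalings, and so did the lower targets CCNG1, CCNG2, PERP, SPATA18 and CYFIP2. The median of all genes was -0.14 on the deposited scale and 0.03 after centring, while that of the targets was -0.04 and 0.13.

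**Figure D4:**
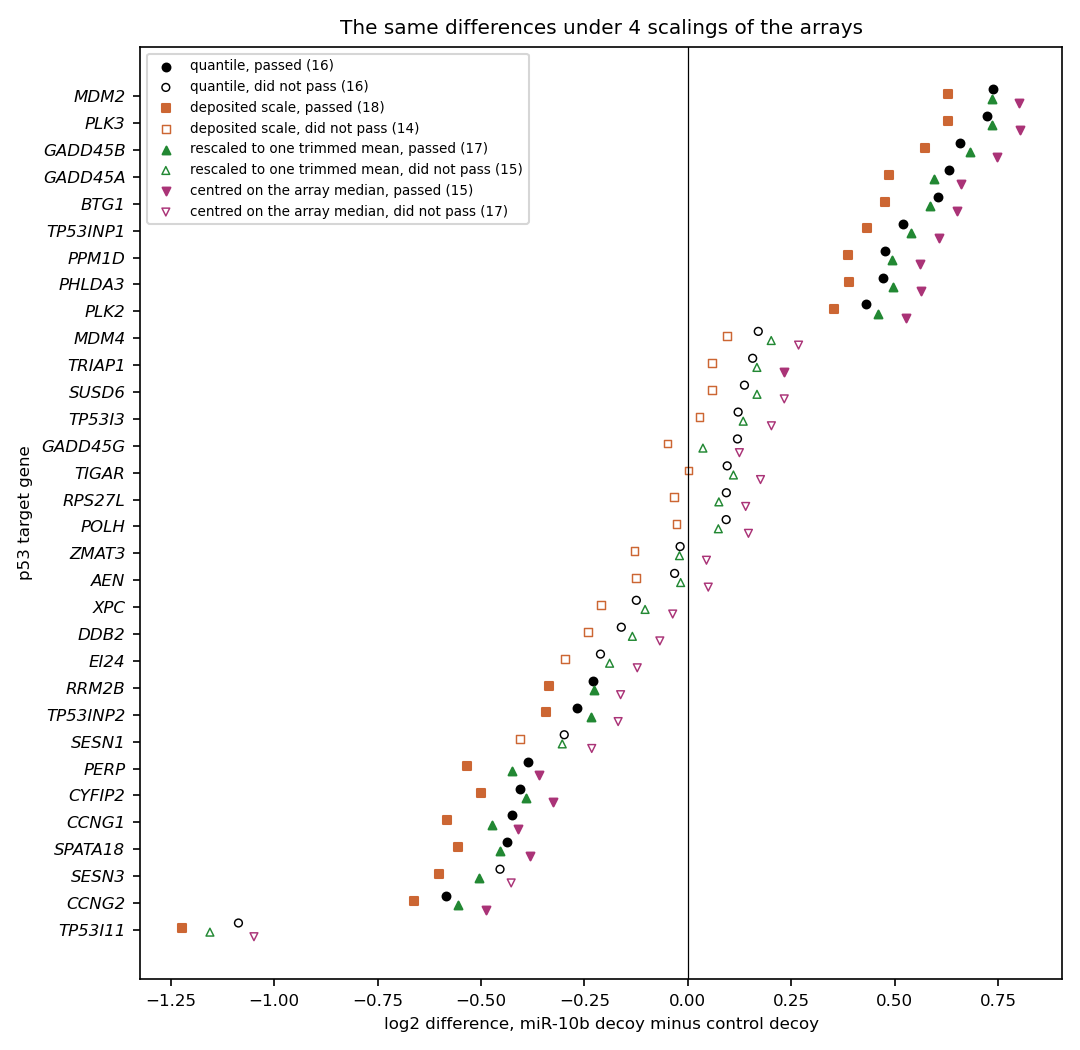
Log2 difference (miR-10b decoy minus control decoy, horizontal axis) of the 32 p53 target genes under 4 scalings of the arrays, with filled symbols where the adjusted p was below 0.05. RRM2B and TP53INP2 are open after centring (down triangles).

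Other p53 targets outside the 34 were also divided, with 6 higher, 5 lower and 9 that did not pass among 20 tested of 22 listed (median log2 difference 0.00). In this list 30% were higher and 25% lower, beside 16.6% and 17.3% of all tested genes. GDF15, a stress cytokine, went from 871 ± 52.4 to 3069 ± 263 (SD, n = 3) and rose by 1.81 on the log2 scale (SE 0.07, adjusted p = 2.4e-08). DRAM1, a lysosomal autophagy protein, went from 225 ± 28.2 to 518 ± 24.4 (SD, n = 3) and rose by 1.18 on the log2 scale (SE 0.10, adjusted p = 5.46e-06). SESN2, the stress-inducible sestrin, rose by 0.59, BLOC1S2 by 0.40 and the death receptor TNFRSF10B by 0.47. CDKN1A, which encodes the cell cycle inhibitor p21, had 1543, 1489 and 1509 in controls and 1844, 1869 and 1817 with the decoy. It rose by 0.28 on the log2 scale (SE 0.05, adjusted p = 0.00106), a call that ended on the deposited scale (0.16, adjusted p = 0.379), as did that of BLOC1S2 (adjusted p = 0.11). Averaging the probe sets of each gene ended the call of TNFRSF10B (adjusted p = 0.381). Lower were APAF1, the caspase activator of the apoptosome (-0.71), SFN, a 14-3-3 protein (-0.50), ANKRA2 (-0.45), the death receptor FAS (-0.26) and PMAIP1, which encodes the BH3-only protein NOXA (-0.21). After centring, FAS (adjusted p = 0.159) and PMAIP1 (adjusted p = 0.0551) no longer passed. PMAIP1 also failed when control replicate 3 (0.0765) or decoy replicate 1 (0.0835) was left out, and FAS when control replicate 2 (0.0865), control replicate 3 (0.0925), decoy replicate 1 (0.0791) or decoy replicate 3 (0.0598) was. With averaged probe sets APAF1 (adjusted p = 0.616) and SFN (adjusted p = 0.287) did not pass.

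Among regulators of p53, 2 were higher, 4 lower and 10 did not pass of 16 tested out of 19 listed (median log2 difference -0.03). That is 37.5% called, near the 33.9% of all tested genes. The p53 gene itself was not analysed here. The checkpoint kinase CHEK1 fell by 0.70 on the log2 scale (SE 0.11, adjusted p = 0.000483). CHEK2, another checkpoint kinase, fell by 0.42 (adjusted p = 0.0301) and the ubiquitin ligase TRIM24 by 0.31 (adjusted p = 0.0105). USP7, the deubiquitinase that stabilises MDM2 and p53, fell by 0.27 (adjusted p = 0.0113), but the mean of its probe sets had the opposite sign (0.19, adjusted p = 0.162). CREBBP, an acetyltransferase and coactivator of p53, rose by 0.52 (adjusted p = 0.000798) and TP53BP2, which directs p53 towards death genes, by 0.49 (adjusted p = 0.00103). After centring, 5 regulators were higher and 1 lower, with CHEK2 (0.0552), TRIM24 (0.0627) and USP7 (0.099) no longer past the threshold in adjusted p. Over all tested genes, 20.7% were higher and 12.6% lower after centring. The call of CHEK2 also ended when control replicate 2 (0.0622), control replicate 3 (0.11), decoy replicate 2 (0.0531) or decoy replicate 3 (0.106) was left out. With averaged probe sets the calls of TRIM24 (adjusted p = 0.882) and CREBBP (adjusted p = 0.0706) ended as well. The damage kinases ATM (-0.26) and ATR (-0.06) did not pass, although ATM passed as lower when control replicate 3 was left out (adjusted p = 0.0469).

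Cell cycle genes that p53 is known to repress through p21 were mostly lower. Of 10 tested, 9 fell (90%, beside 17.3% of all tested genes) and 0 rose, and the median log2 difference was -0.62, beside -0.02 over all genes. CDK1, the mitotic kinase, fell by 0.91 on the log2 scale (SE 0.07, adjusted p = 3.57e-06), CCNB2 by 0.67, CENPF by 0.65, CCNB1 by 0.59 and AURKA by 0.43. PLK1 had -0.02 (95% interval -0.55 to 0.52). With averaged probe sets 5 of the 10 were lower, while 11.3% of all genes were. CCNB2 was among those that no longer passed (adjusted p = 0.696). Whether p53 or p21 had a part in these falls was not tested. This list, like the others, was chosen with earlier results of these data known.

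**Figure D5:**
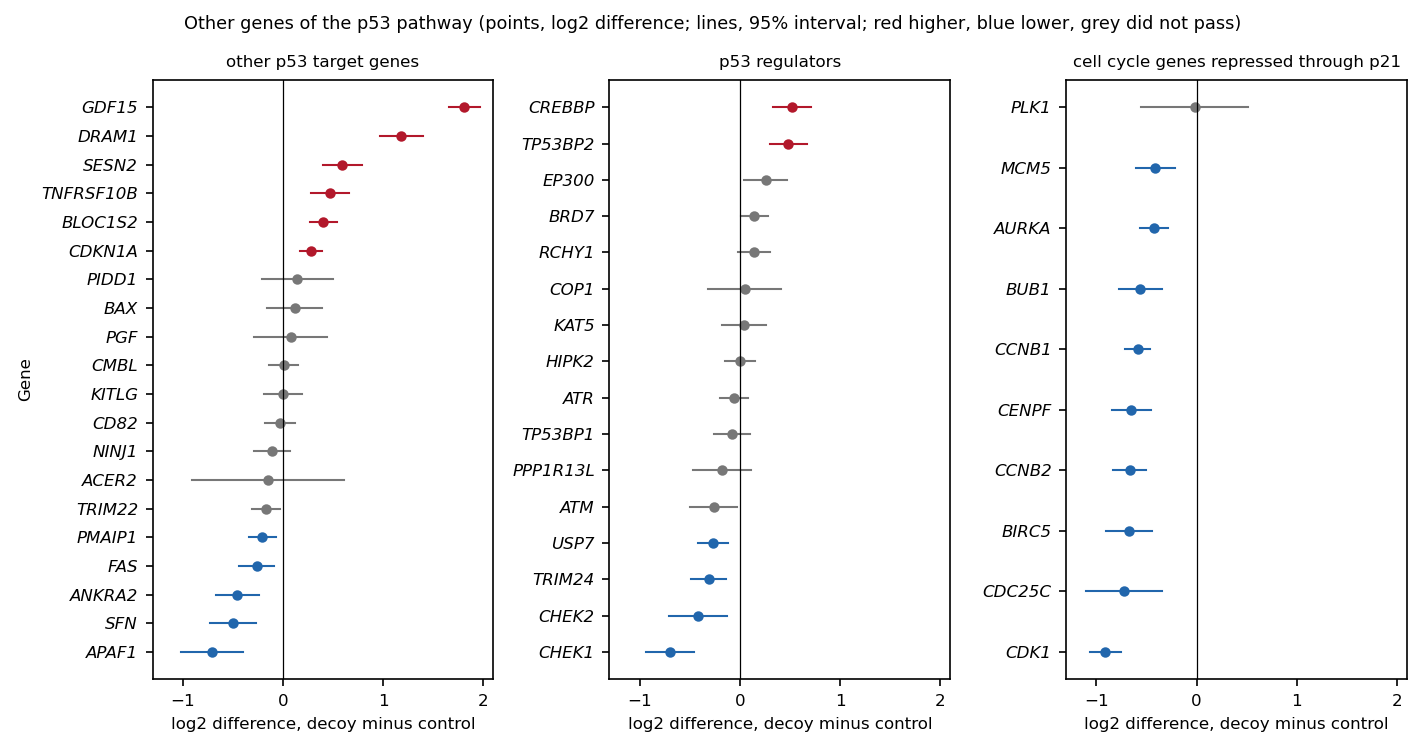
Log2 difference (miR-10b decoy minus control decoy, horizontal axes; points) with 95% interval (lines) for 20 other p53 target genes, 16 p53 regulators and 10 cell cycle genes repressed through p21; red genes were higher, blue lower and grey did not pass. GDF15 and DRAM1 lie farthest right at 1.81 and 1.18, and 9 of the 10 cell cycle genes lie left of 0 in blue.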

How the data were processed

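RNA from 3 control decoy and 3 miR-10b decoy samples was measured on arrays from 0.25 µg of total RNA, per the labels' protocols. The deposited values are linear signal intensities made with MAS5, per the submitters' processing notes; its version, scaling target and detection calls were not given in the sources used here. Groups and replicate numbers came from sample titles. Of 54675 probe sets, 41097 carried 1 gene symbol, 1801 several and 11777 none, per the platform annotation, and 41037 of the 41091 used were matched by Entrez identifier to RefSeq names (0 updated); 62 control probe sets were left out. Because 1 deposited array was brighter, intensities were quantile-normalized and turned into log2(signal + 7). Each of 19775 genes was represented by its brightest probe set, and a filter at the 30th percentile of mean signal (15.6) left 13842. The comparison used limma 3.58.1 in R 4.3.3 (lmFit, then eBayes with an intensity trend, 7.67 prior degrees of freedom). Its two-sided p-values were adjusted over all 13842 genes by the Benjamini-Hochberg method, and genes below 0.05 passed. SE and 95% intervals are limma's moderated ones. The script was tested on simulated data. The number of arrays limits the precision. Members and lists were chosen with earlier results of these data known. Signals on every array are given for members that passed with groups that did not overlap and for MDM2, MDM4, GADD45A, GADD45B and CCNG1; those of SESN3, TP53I11 and of 2 further probe sets were added after their values were seen. From other lists up to 5 genes with the smallest p among those past the threshold, CDKN1A and GDF15 are named, and other names there were added after their values were seen. Alternatives were 3 other scalings, offsets of 1 and 32, 2 other filters, averaging a gene's probe sets, each probe set by itself, 2 variance models, a replicate block and each array left out; the deposited scale without control replicate 3 was added after seeing the data.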

Additional observations from a re-analysis of the deposited data

How the results depend on the processing

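Of the 16 calls among p53 targets, 8 held under all 18 alternatives that give a value per gene (BTG1, GADD45A, GADD45B, MDM2, PHLDA3, CCNG1, CCNG2 and CYFIP2). Leaving out each array in turn gave 9 to 11 higher and 4 to 9 lower targets, and 1873 to 2158 higher and 1831 to 2149 lower among all genes. Over all genes, 1094 were higher on the deposited scale, against 2299 in the values reported, with 2561 lower against 2398. The mean of all probe sets gave 1479 higher and 1566 lower over all genes, and 6 and 7 among the 30 targets then tested. Its lower targets lacked PERP and SPATA18 and gained EI24 (adjusted p = 0.0335) and RPS27L (adjusted p = 0.0471). Per-gene variances without moderation gave 1453 and 1377 over all genes, and 6 and 6 among the targets. With the deposited scale and no control replicate 3, 10 targets were higher and 8 lower. Over all tested genes, 13.7% were higher and 15.1% lower in that setting. Among values past the threshold in the reported or the alternative setting, signs turned for RPS27L with the mean of its probe sets (-0.13, adjusted p = 0.0471) and in one probe set (-0.27), for one dim PLK3 probe set (-0.0088) and for USP7 with the mean of its probe sets (0.19); the cause was not tested. Values that passed in neither setting also turned in some, for MDM4 (-0.06 with averaged probe sets and 3 single probe sets), RPS27L (-0.03 on the deposited scale and 1 probe set at -0.22), POLH (-0.03 on the deposited scale and 3 probe sets), GADD45G (-0.05 on the deposited scale), ZMAT3 (0.05) and AEN (0.05), both after centring. The replicate number as a block gave 9 higher and 7 lower targets and 2224 and 2333 genes over all. Same-numbered arrays did not deviate together (correlations of 0.03, -0.03 and -0.01), so the numbers give no sign of pairing, and the block ended the call of CHEK2 (adjusted p = 0.0506) and brought EP300 past the threshold (0.0451). Genes near the filter level, such as GADD45G and TP53I11, have wide intervals, and changes of the size seen in GADD45A were not detectable there.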
